A study of Homo sapiens with 39 samples.

Results

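The aminoacyl-tRNA synthetases are the enzymes that join each amino acid to its tRNA. The 36 nuclear genes described here were taken by symbol, 20 for the cytosolic enzymes (AARS to YARS, without a final 2) and 16 for the mitochondrial enzymes (names ending in 2). All 36 were found among the 21530 symbols of the polysome table and the 26334 symbols of the RIP tables. No member was listed at 0 in any of these libraries. Members were picked by name, and earlier results of these data were known when they were chosen.

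Every codon read by a ribosome needs a tRNA charged by one of these enzymes, so they act upstream of all protein synthesis. The cytosolic enzymes serve cytoplasmic ribosomes, and part of them sits in a large multisynthetase complex held together by the scaffold proteins AIMP1, AIMP2 and EEF1E1. The mitochondrial enzymes are also encoded in the nucleus and made on cytoplasmic ribosomes, and they are then imported to serve the ribosomes of the organelle. GARS and KARS each make both the cytosolic and the mitochondrial form, and EPRS joins glutamate and proline to their tRNAs. Several cytosolic synthetase genes are known targets of ATF4, the transcription factor of the amino acid response.

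The study asked how U2AF1, the splicing factor that reads the AG at the end of introns, acts on translation. HBEC cells, a human bronchial epithelial line, carried wild-type U2AF1 (WT), the S34F mutant (S34F) or a frame shift in U2AF1 (FS). The labels do not say which alleles the FS line carries or whether each line is 1 clone. From each of the 3 lines, RNA was sequenced from 8 fractions of a polysome gradient (monosomes, 2, 3, 4, 5, 6 and 7 ribosomes, and 8-10 ribosomes), 24 libraries in all. RNA immunoprecipitation (RIP) gave a U2AF1 precipitate (IP), a control precipitate (IgG) and the cytosolic RNA (Cytosol) from the same 3 lines, 9 libraries in all. PAR-CLIP, which marks RNA bases touching a protein by T-to-C changes, used a human embryonic kidney line, Flp-In-293, that expressed U2AF1 with a FLAG-HA tag, WT or S34F. The 3 cluster lists (cytoplasm WT, cytoplasm S34F, chromatin WT) each pooled 2 replicates. The 3 HBEC lines share the same parental cell type and medium. Each fraction and each RIP library was made once per line. The lines therefore stand in as the replicates of the fraction and RIP comparisons. The fits treated the libraries of a line as independent once the level of that line was removed. A p-value here measures how unevenly single libraries departed from the levels of their line and their kind, in these 3 lines only. It does not cover the spread of repeated gradients or precipitations.

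Total counts ran from 2440145 to 13367574 in the polysome libraries and from 2582141 to 29769968 in the RIP libraries, so that 3 counts corresponded to 0.224 to 1.23 and 0.101 to 1.16 CPM (counts scaled to a common library total). U2AF1 itself had 53.9, 21.4 and 54.7 CPM in the Cytosol of the WT, S34F and FS lines. U2AF1 had a mean over the gradient of 44.3, 24.4 and 57.8 CPM, so the line labelled FS did not have less U2AF1 RNA than WT and the line labelled S34F did. Summed over 8 basal airway epithelial markers, the level was 6709 to 14421 CPM in the polysome libraries. Markers of ciliated, secretory, fibroblast, endothelial and neuronal cells each summed to at most 41.0 CPM in any polysome library, and 4 blood cell markers to 51.0 to 181 CPM. In bulk RNA, fewer cells with a transcript and less of it per cell cannot be told apart.

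In the cytosolic RNA, the cytosolic synthetases were the more abundant family. Levels between genes were compared per length, as the deposited RPKM, which divides reads by transcript length and library size. The median RPKM was 21.5, 16.9 and 19.7 for the 20 cytosolic enzymes in WT, S34F and FS. The 16 mitochondrial enzymes had medians of 3.27, 2.93 and 3.33, close to the medians of all genes, which were 3.76, 3.43 and 3.56. MARS, the methionine enzyme, was highest with 63.6, 55.4 and 52.8 RPKM in the 3 lines (mean 57.3 ± 5.62, SD, n = 3). WARS2, the mitochondrial tryptophan enzyme, was lowest with 0.867, 1.24 and 0.722 RPKM (mean 0.944 ± 0.269, SD, n = 3). VARS2, the mitochondrial valine enzyme, ranked 4 of 36 with 38.9, 30.6 and 41.8 RPKM (mean 37.1 ± 5.79, SD, n = 3). It was the mitochondrial enzyme with the highest level, and its range overlapped those of AARS, YARS, VARS, QARS, SARS, WARS, GARS and FARSA.

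Set side by side for the same amino acid, the cytosolic enzyme was higher in all 3 lines in 11 of 14 pairs. For phenylalanine this holds for FARSA, the subunit that was paired with FARS2. FARSB, the other subunit of the cytosolic enzyme, was not paired. It had 3.05, 3.27 and 2.4 RPKM in WT, S34F and FS, below FARS2 with 5.44, 4.61 and 6.64. MARS had 47.1, 51.3 and 48.9 times the RPKM of MARS2 in WT, S34F and FS. WARS had 45.1, 22.8 and 43.0 times the RPKM of WARS2, and AARS had 20.9, 21.2 and 24 times that of AARS2. The exceptions were the leucine, threonine and valine pairs. LARS had 0.888, 2.26 and 1.96 times the RPKM of LARS2, TARS had 1.03, 1.17 and 0.81 times that of TARS2, and VARS had 1.03, 0.94 and 0.99 times that of VARS2. For valine and threonine the cytosol and the mitochondrion were thus served by mRNAs at nearly the same level per length. Summed over the family, Cytosol CPM was 4670, 4175 and 4372 for the cytosolic and 954, 845 and 990 for the mitochondrial enzymes.

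**Figure D1:**
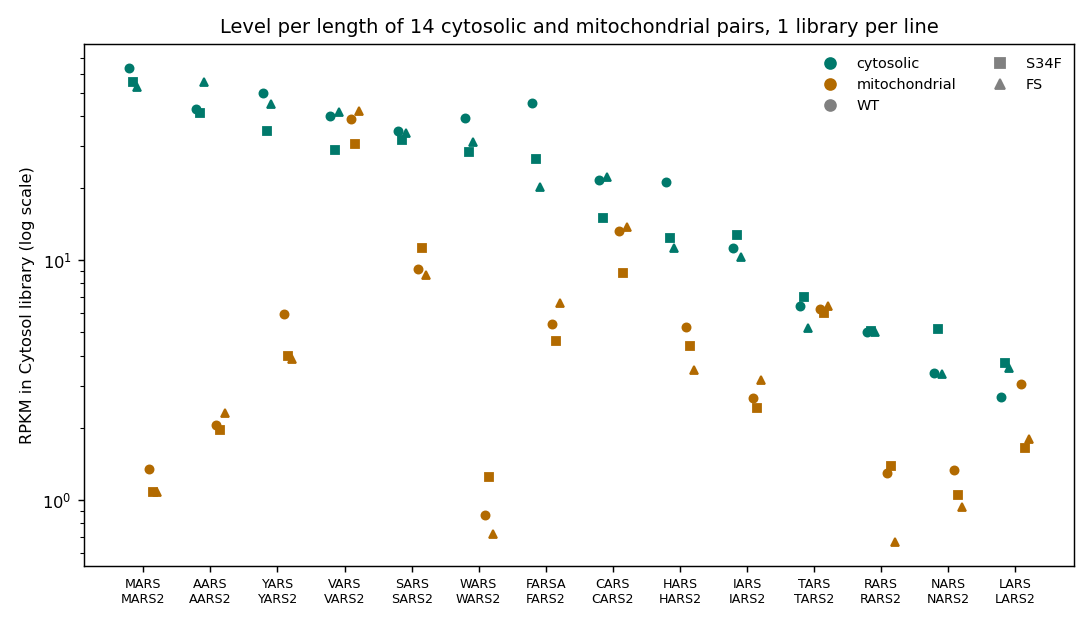
Deposited RPKM in Cytosol of the cytosolic and the mitochondrial enzyme for the same amino acid, on a log scale, with 1 point per line (WT, S34F, FS). The points lie apart in 11 of 14 pairs, and the valine, threonine and leucine pairs meet. For phenylalanine FARSA is drawn and FARSB is not.

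The polysome gradient asks how many ribosomes sit on each mRNA. Values are CPM within a fraction, so they give a transcript's share of that fraction's RNA and not its amount. In the 8-10 ribosome fraction against monosomes, 27 of 36 synthetase mRNAs were higher and 3 were lower in edgeR's quasi-likelihood test over 15945 genes with the line as a block (Benjamini-Hochberg adjusted p under 0.05). Of all genes tested, 28.3% were higher and 21.6% lower, 49.9% in all. The 20 cytosolic enzymes divided into 17 higher and 1 lower, with a median log2 change of 1.07 beside 0.08 for all genes. The 16 mitochondrial enzymes divided into 10 higher and 2 lower, with a median of 0.82. Line by line, the cytosolic median was 0.32 in WT, 1.89 in S34F and 0.79 in FS, and the mitochondrial median was 0.50, 0.80 and 0.78, beside -0.15, 0.02 and -0.12 for all genes. The size of the cytosolic change was thus uneven, with S34F the largest. In 15 members all 3 libraries with 8-10 ribosomes lay above all 3 monosome libraries (background 21.1%), and in 3 they lay below (background 30.8%).

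The cytosolic mRNAs with the largest rise carried tyrosine, histidine, tryptophan, lysine and asparagine enzymes. YARS, the tyrosine enzyme, had 90.1, 73.3 and 74.3 CPM in monosomes and 318, 302 and 401 CPM with 8-10 ribosomes in WT, S34F and FS. The heavy fraction was above the monosomes in every line and the groups did not overlap (log2 change 2.22 ± 0.29, SE, adjusted p = 1.17e-05, edgeR). WARS, the tryptophan enzyme, went from 158, 77.5 and 121 to 341, 359 and 507 CPM, again without overlap (1.92 ± 0.28, adjusted p = 2.53e-05, edgeR). HARS, the histidine enzyme, went from 17.9, 22.2 and 23.8 to 63.9, 80.8 and 80.2 CPM (1.95 ± 0.31, adjusted p = 6.45e-05, edgeR). These 3 transcripts kept their call under every alternative tried, each line left out in turn included.

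KARS and NARS rose as well, with less even lines. KARS, the lysine enzyme, had 30.8, 26.4 and 51.1 CPM in monosomes and 65.5, 152 and 131 CPM with 8-10 ribosomes (1.84 ± 0.32, adjusted p = 0.000131, edgeR). NARS, the asparagine enzyme, had 25.3, 30.5 and 35.8 CPM in monosomes and 39.7, 155 and 103 CPM with 8-10 ribosomes (1.70 ± 0.34, adjusted p = 0.000351, edgeR). In both genes the groups did not overlap, and WT had the smallest value in the heavy fraction.

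QARS, the glutamine enzyme, was the cytosolic member that fell. Over the fractions from monosomes to 8-10 ribosomes, QARS had 660, 415, 538, 313, 211, 177, 129 and 127 CPM in WT. In S34F it had 620, 607, 748, 454, 280, 225, 213 and 134 CPM, and in FS 646, 529, 530, 416, 254, 142, 134 and 129 CPM. The last fraction was the lowest in all 3 lines, and the 3 monosome libraries were all above it. The log2 change was -2.17 ± 0.32 (adjusted p = 2.72e-05, edgeR), and it lay between -1.94 and -2.27 under all alternatives. QARS is a subunit of the multisynthetase complex, of whose 8 enzymes 6 were higher. They were DARS (1.40), EPRS (0.93), IARS (1.10), KARS, MARS (0.70, adjusted p = 0.049, edgeR) and RARS (1.03). LARS, also of the complex, was not called (0.53 ± 0.30, adjusted p = 0.147, edgeR). Outside the complex 11 of 12 cytosolic members were higher, and VARS was not called (-0.16 ± 0.32, adjusted p = 0.682, edgeR). By catalytic fold, 7 of 10 class I enzymes were higher and 1 lower, and 10 of 10 class II enzymes were higher.

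**Figure D2:**
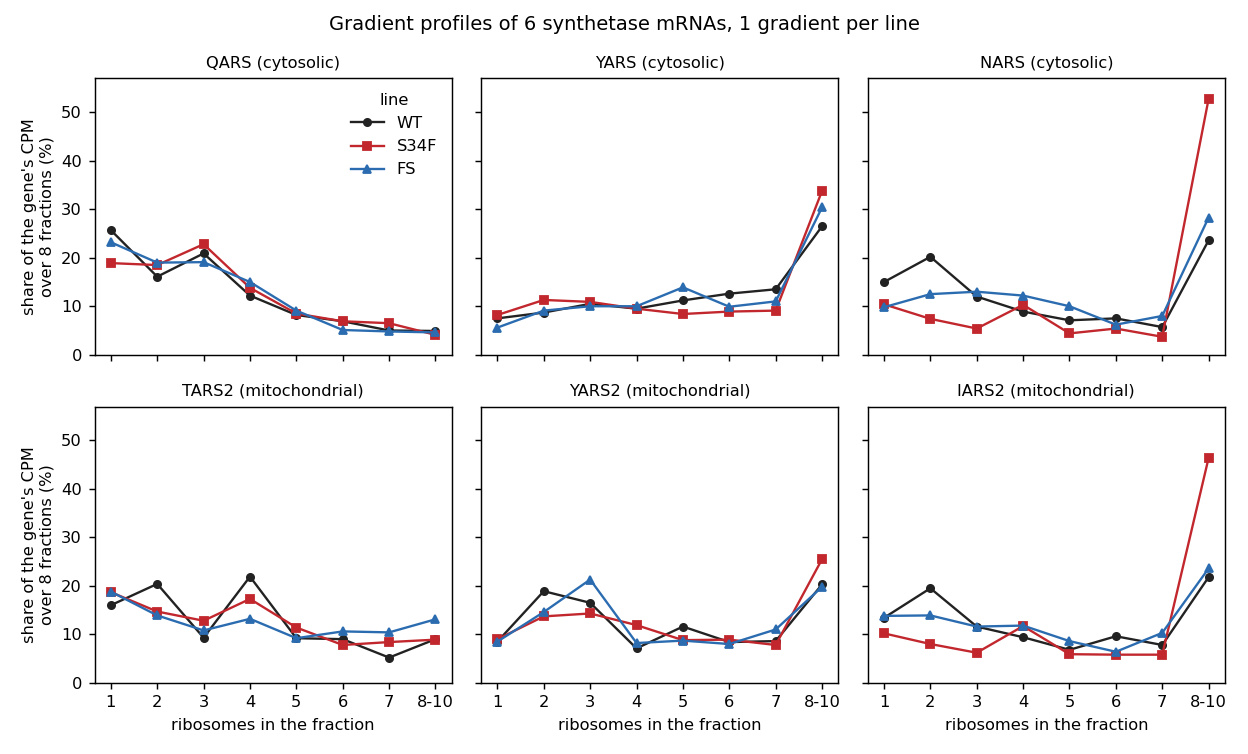
Share of a transcript's CPM over the 8 fractions (%) against the number of ribosomes in the fraction, with 1 line per cell line, for QARS, YARS, NARS, TARS2, YARS2 and IARS2. QARS declined toward heavy fractions in all 3 lines, and NARS and IARS2 had their highest share at 8-10 ribosomes, most of all in S34F.

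Among the mitochondrial enzymes, YARS2 had the largest rise. YARS2, the mitochondrial tyrosine enzyme, had 13.9, 17.6 and 20 CPM in monosomes and 33.3, 49.8 and 46.7 CPM with 8-10 ribosomes (1.45 ± 0.27, adjusted p = 0.000229, edgeR). EARS2, the mitochondrial glutamate enzyme, went from 28.3, 20.7 and 28.9 to 51.1, 62.9 and 67.8 CPM (1.34 ± 0.26, adjusted p = 0.000267, edgeR). CARS2, the mitochondrial cysteine enzyme, went from 42.0, 33.3 and 36.9 to 86.8, 75.9 and 89.2 CPM (1.31 ± 0.29, adjusted p = 0.000776, edgeR). In these 3 genes the groups did not overlap.

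IARS2 and WARS2 rose with overlapping groups. IARS2, the mitochondrial isoleucine enzyme, had 29.9, 33.6 and 75.3 CPM in monosomes and 48.5, 153 and 129 CPM with 8-10 ribosomes (1.41 ± 0.31, adjusted p = 0.000779, edgeR). The FS monosome library lay above the WT library with 8-10 ribosomes. WARS2 had 4.82, 8.87 and 7.62 CPM in monosomes and 7.53, 21.6 and 20 CPM with 8-10 ribosomes (1.29 ± 0.42, adjusted p = 0.0149, edgeR), and the WT heavy library lay within the monosome range.

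AARS2 and TARS2 went the other way. TARS2, the mitochondrial threonine enzyme, had 78.7, 100 and 93.7 CPM in monosomes and 44.3, 47.5 and 65.5 CPM with 8-10 ribosomes (-0.63 ± 0.26, adjusted p = 0.0458, edgeR). AARS2, the mitochondrial alanine enzyme, had 44.1, 63.6 and 57.3 CPM in monosomes and 27.8, 30.4 and 28.3 CPM with 8-10 ribosomes (-0.77 ± 0.26, adjusted p = 0.0182, edgeR). Neither gene's groups overlapped, while AARS and TARS, the cytosolic enzymes for the same amino acids, rose by 0.76 and 1.43. Not called were NARS2 (0.77), PARS2 (0.48), VARS2 (0.37) and MARS2 (0.26).

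The number of calls fell when a single line was left out. Without S34F, 7 of the 17 cytosolic transcripts called higher remained so (CARS, FARSA, HARS, KARS, NARS, WARS and YARS). Without S34F the median of the cytosolic enzymes was 0.85, and EPRS went from 0.93 to 0.20 (adjusted p = 0.657, edgeR). Of the 10 mitochondrial transcripts called higher, 7 remained without S34F (CARS2, EARS2, IARS2, LARS2, SARS2, WARS2 and YARS2), and the lower calls of AARS2 and TARS2 were lost. Without FS, 5 of the 10 mitochondrial transcripts remained (CARS2, EARS2, IARS2, RARS2 and YARS2), and neither AARS2 nor TARS2 was still called. These fits had fewer libraries, and the share of all genes called in them is not given here. The counts are therefore no result about the members.

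**Figure D3:**
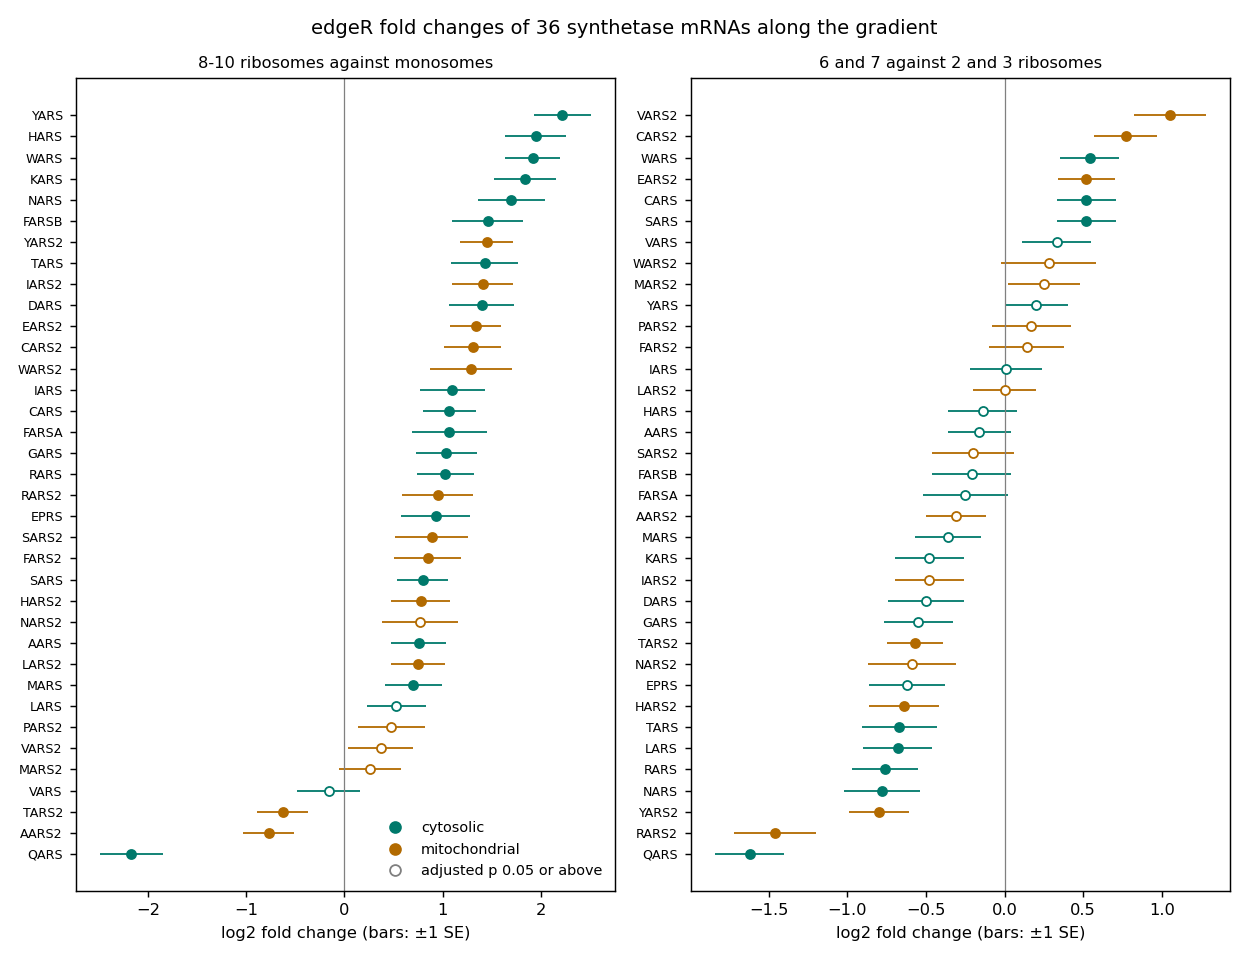
Log2 change with its standard error for each of the 36 synthetase mRNAs in 8-10 ribosomes against monosomes and in 6 and 7 against 2 and 3 ribosomes, from edgeR with the line as a block. QARS lies far to the low side in both comparisons, at -2.17 and -1.62.

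Inside the polysomes, 6 and 7 ribosomes were compared with 2 and 3 ribosomes, which leaves out both end fractions. Here 6 synthetase mRNAs were higher and 9 lower (edgeR, adjusted p under 0.05), beside 20.8% and 12.8% of all genes. The median log2 change was -0.31 for the cytosolic and -0.10 for the mitochondrial enzymes, beside -0.04 for all genes. No member had all its libraries with 6 and 7 ribosomes above those with 2 and 3 (background 4.11%). QARS and YARS2 had all of them below (background 1.12%). The broad rise at 8-10 ribosomes was thus not seen as a rise from light to medium polysomes.

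The cytosolic calls in this comparison were QARS (-1.62 ± 0.22, adjusted p = 1e-05, edgeR), NARS (-0.78), RARS (-0.76), LARS (-0.68) and TARS (-0.67) on the low side and WARS (0.54), CARS (0.52) and SARS (0.52) on the high side. WARS, CARS and SARS carry the tryptophan, cysteine and serine enzymes, and their calls were lost with any 1 line left out. QARS alone among the cytosolic calls held under every alternative. In the complex, 3 of 8 members were lower and 0 higher.

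The mitochondrial calls were VARS2 (1.05 ± 0.23, adjusted p = 0.00129, edgeR), CARS2 (0.77) and EARS2 (0.52) on the high side and RARS2 (-1.46 ± 0.26, adjusted p = 0.000148, edgeR), YARS2 (-0.80), HARS2 (-0.64) and TARS2 (-0.57) on the low side. VARS2 had 450, 265, 633, 463, 770, 776, 753 and 478 CPM from monosomes to 8-10 ribosomes in WT. In S34F it had 293, 274, 549, 542, 875, 872, 814 and 297 CPM, and in FS 246, 234, 453, 487, 674, 520, 614 and 352 CPM. VARS2 was thus highest at 5 or 6 ribosomes in each line and fell at 8-10.

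RARS2, the mitochondrial arginine enzyme, peaked at 3 ribosomes. It had 8.84, 7.50, 21.1, 13.1, 8.80, 5.94, 4.20 and 7.86 CPM in WT over the fractions. The 3-ribosome library had 27.8 CPM in S34F and 71.2 CPM in FS, the highest RARS2 value of each gradient. RARS2 and YARS2 were thus called lower here and higher at 8-10 ribosomes, as were HARS2 and the cytosolic NARS, RARS and TARS. For RARS2 the second call rested on S34F, where 8-10 ribosomes stood 2.23 above monosomes on the log2 scale, beside -0.15 in WT and 0.13 in FS. Without S34F the RARS2 change was 0.21 (adjusted p = 0.682, edgeR).

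The neighbours of the enzymes in the pathway were given from lists. At 8-10 ribosomes against monosomes, 28.3% of all genes tested were higher and 21.6% lower. The 3 scaffold genes were all higher at 8-10 ribosomes (AIMP1 1.31, AIMP2 1.88, EEF1E1 2.24). Of 5 genes that export or deliver tRNA, XPOT, the exporter of tRNA from the nucleus, was higher (1.10), and EEF1A1 (-1.93), EEF1G (-1.50) and EEF1B2 (-1.04), parts of the elongation factor that carries charged tRNA to the ribosome, were lower. The change of QARS (-2.17) was close in size to that of EEF1A1. Of 15 tested genes for mitochondrial tRNA charging and delivery (16 listed), 7 were higher, among them TSFM (1.85), PUS1 (1.77), GATB (1.67) and PTRH2 (1.39), and 1 was lower, MTFMT (-1.11), the formyltransferase of the initiator tRNA. Of 18 amino acid response genes, 13 were higher and 0 lower, led by PSAT1 (2.23), SLC7A5 (1.92), ASNS (1.71) and SLC3A2 (1.71).

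From light to medium polysomes the same lists moved less evenly, beside 20.8% of all genes higher and 12.8% lower. In the scaffold list EEF1E1 was higher (0.91). In the delivery list XPOT was higher (0.64) and 4 of 5 genes were lower (EEF1G -2.03, EEF1A1 -1.86, EEF1B2 -1.72 and EEF1D -1.28). In the mitochondrial list 5 of 15 tested genes were higher and 2 lower, the latter near the share of all genes, with PUS1 at 1.34 and GFM1 at -1.04. In the amino acid response list 8 were higher, with TRIB3 (1.75), SLC7A5 (1.3), PPP1R15A (1.24) and CHAC1 (1.09) in front.

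A ribosome index, the ribosome number averaged over the fractions with CPM as weights, was computed per gene and line with 8-10 taken as 9. Since the RNA amount of each fraction is not known, it compares transcripts within a line and is not the number of ribosomes on them. It was compared in the 9501 genes that reached 500 counts in every gradient. QARS had 3.31, 3.46 and 3.30 in WT, S34F and FS (mean 3.36 ± 0.09, SD, n = 3), and 0.768%, 3.52% and 0.61% of genes had a lower value. YARS had 5.59, 5.64 and 5.74 (SD 0.07), and WARS had 5.34, 5.88 and 5.82 (SD 0.30), with WT lowest. VARS2 had 4.97, 5.01 and 5.02 (SD 0.03), the members YARS and VARS2 thus varying less between lines than WARS.

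The S34F gradient differed from the others for part of the cytosolic family. The median index of the 20 cytosolic enzymes was 4.71 in WT, 5.59 in S34F and 4.97 in FS. For the 15 mitochondrial enzymes with enough counts it was 4.76, 4.96 and 4.89, and for all genes 4.76, 4.94 and 4.82. In 9 of 20 cytosolic and 1 of 15 mitochondrial enzymes, S34F was at least 1 ribosome above WT, beside 8.19% of all genes (a step chosen after the values were seen). In FS no member was at least 1 above WT, beside 0.168% of genes, or at least 1 below it, beside 0.0947%. With TMM-scaled CPM the medians were 4.96, 5.44 and 5.00 for cytosolic, 5.01, 4.92 and 4.93 for mitochondrial enzymes and 4.99, 4.96 and 4.84 for all genes. The cytosolic difference of S34F from WT was then smaller and those of the mitochondrial enzymes and of all genes turned sign, and 6 cytosolic and 1 mitochondrial enzymes were at least 1 above WT, beside 2.16% of genes. Each line had 1 gradient, so these differences have no test, and both share the WT gradient.

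NARS had an index of 4.60, 6.39 and 5.2 in WT, S34F and FS, and the S34F value stood 1.79 above WT. TARS, the threonine enzyme, had 4.47, 6.26 and 5.02 (1.79 above), and DARS, the aspartate enzyme, had 4.59, 6.31 and 4.95 (1.72 above). EPRS had 4.52, 6.12 and 4.27 (1.61 above). The other cytosolic members past 1 were LARS (1.46), RARS (1.40), IARS (1.18), FARSB (1.16) and GARS (1.12), and the mitochondrial one was IARS2 (4.67, 6.14 and 4.90, 1.47 above). Of the 9 cytosolic members, 5 belong to the multisynthetase complex.

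This difference lay in 1 library. The S34F library with 8-10 ribosomes held a median of 34.6% of a cytosolic synthetase's gradient CPM, beside 17.5% in WT and 18.6% in FS. For mitochondrial enzymes the medians were 16.2%, 18.3% and 17.6%, and for all genes 13%, 13.7% and 12.2%. NARS had 23.6%, 52.8% and 28.3% there, while QARS had 4.92%, 4.09% and 4.62%. In 3 cytosolic members (FARSA, QARS and VARS) and 6 mitochondrial members (AARS2, CARS2, PARS2, SARS2, TARS2 and VARS2) the S34F share was below both other lines. FARSA, the catalytic subunit of the phenylalanine enzyme, had 23.5%, 15% and 29.6%, VARS had 14.8%, 9.54% and 15.5%, and SARS2 had 24.2%, 11.9% and 21.6%. With the 8-10 fraction left out, an alternative added after the values were seen, no member was 1 ribosome above WT (0.137% of genes) or below it (0.0737%). The index then spans fewer ribosomes, so a step of 1 is harder to reach and this count cannot place the difference. The median S34F difference of the cytosolic enzymes went from 0.65 to -0.02. Whether the S34F difference belongs to the line or to that library cannot be told apart.

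**Figure D4:**
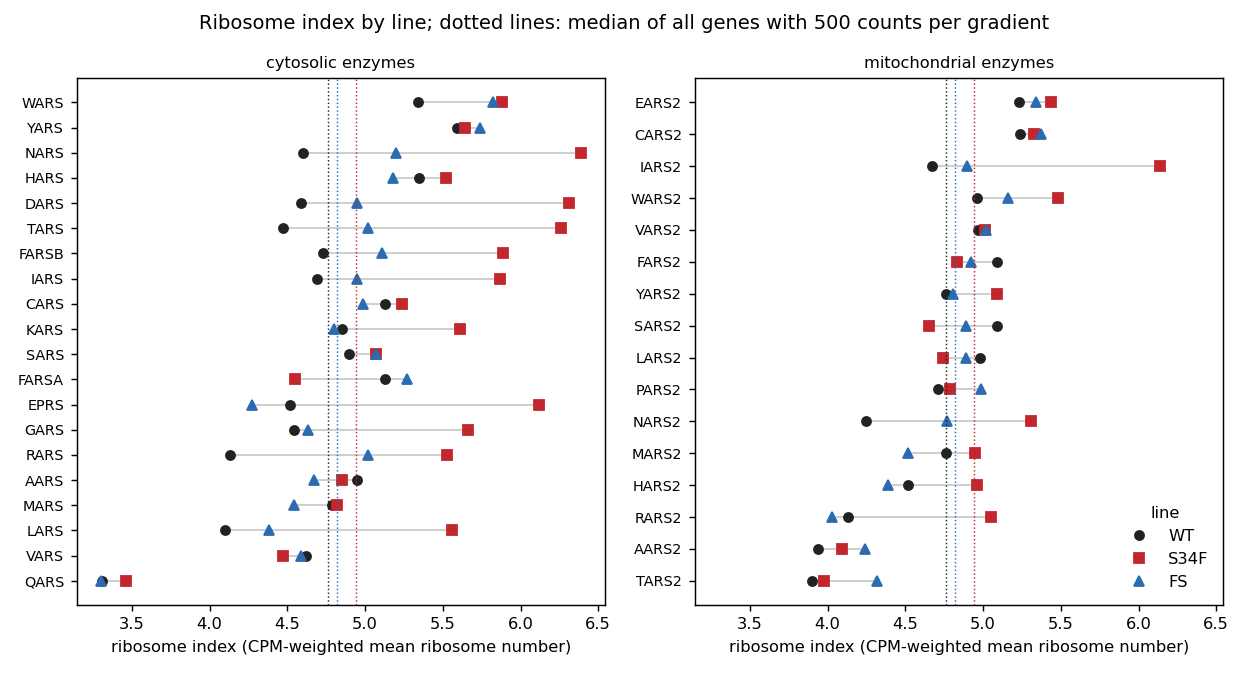
Ribosome index (ribosome number averaged over the fractions with CPM as weights) of each synthetase mRNA in WT, S34F and FS, 1 gradient per line. QARS is lowest near 3.36, and S34F stands above WT for NARS, TARS, DARS, EPRS and IARS2.

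Levels of the synthetase mRNAs also differed between lines, again with 1 gradient and 1 Cytosol library per line and no test. A gene was counted as past a 1.5-fold difference, and both comparisons share the WT libraries. In mean polysome CPM of S34F against WT, 4 cytosolic enzymes were past 1.5-fold higher and 1 lower, and no mitochondrial enzyme in either direction (background 10.7% and 10.3%). These 4, EPRS (0.76), NARS (0.80), RARS (0.85) and DARS (0.66), were higher in 5, 6, 8 and 4 of 8 fractions, and with the 8-10 fraction left out 0 cytosolic enzymes were past 1.5-fold higher and 3 lower. The share of all genes without that fraction is not given here. In FS against WT, 8 cytosolic and 4 mitochondrial enzymes were higher and 1 cytosolic enzyme was lower (background 28.1% and 14.6%). In Cytosol of S34F, 1 cytosolic and 2 mitochondrial enzymes were higher and 3 and 1 lower (background 11.1% and 14.4%). In Cytosol of FS, 0 and 1 were higher and 3 and 3 lower (background 11.3% and 17.2%).

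FARSA was lower than WT in both kinds of RNA and both lines. Its Cytosol level was 263 CPM in WT, 164 in S34F and 120 in FS, and the log2 differences from WT were -0.69 and -1.14. In mean polysome RNA it had 98.7, 67.6 and 59.0 CPM, with log2 differences of -0.55 and -0.74. FARSB, which encodes the other subunit of the same enzyme, was past 1.5-fold higher in FS polysome RNA (0.69), with a difference of -0.32 in FS Cytosol (20.6 against 25.7 CPM). Its S34F differences were 0.06 in polysome RNA and 0.19 in Cytosol.

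NARS was higher in S34F in both kinds of RNA, with 21.1 against 36.6 CPM in mean polysome RNA (0.80) and 30.6 against 49.4 CPM in Cytosol (0.69). In FS its polysome mean was 45.5 CPM (1.11 above WT) while its Cytosol level was 30.7 CPM (0.01). DARS was higher in S34F by 0.66 in polysome RNA and 0.44 in Cytosol, and in FS it was 1.10 higher in polysome RNA and 0.92 lower in Cytosol (log2 -0.92). RARS2 showed the same opposition in FS, at 1.32 and -0.94. YARS was lower in S34F by 0.43 and 0.44 (log2 -0.43 and -0.44).

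MARS was lower in S34F than in WT in 8 of 8 fractions (mean 224 against 375 CPM, log2 -0.74), with a Cytosol difference of -0.12. In FS, EPRS was higher by 1.29 and 0.38, LARS by 0.55 and 0.41 and AARS by 0.58 and 0.39 in the polysome mean and Cytosol. Of the mitochondrial enzymes, 8 in S34F and 5 in FS differed from WT in the same direction in both kinds of RNA. Log2 differences that rounded to 0.00 were not counted, which left out AARS2 and CARS2 in S34F. Ranked by the smaller of both differences, the leading members were SARS2 (0.48 and 0.37), MARS2 (-0.43 and -0.24) and RARS2 (0.43 and 0.18) in S34F, and FARS2 (0.37 and 0.31), EARS2 (0.29 and 0.48) and IARS2 (1.3 and 0.28) in FS.

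RIP asks which cytosolic RNAs come down with U2AF1. None of the 36 was called in IP against IgG, IP against Cytosol or IgG against Cytosol (edgeR, 11612 genes), and these comparisons share libraries. Of all genes, 0.224% were higher and 1.12% lower in IP against IgG. In IP against Cytosol 0.491% and 0.0431% were, and in IgG against Cytosol 0.663% and 0.0172% (0.68% in all). At an unadjusted p under 0.05 there were 6, 5 and 0 members, and DESeq2 called 3 lower, 2 lower and 0. The share of all genes at these settings is not given here, so these counts are no result about the members. Median log2 changes in IP against IgG were -0.04 for the cytosolic enzymes, -0.14 for the mitochondrial enzymes, 0.42 for the complex and 0.03 for all genes.

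MARS came nearest in IP against IgG. It had 393, 319 and 409 CPM in IP, 574, 571 and 539 CPM in IgG and 570, 526 and 481 CPM in Cytosol of WT, S34F and FS. IP was below IgG in every line without overlap (log2 -0.77 ± 0.18, adjusted p = 0.0508, edgeR), and DESeq2 called it lower (-0.79, adjusted p = 0.000801). VARS, the valine enzyme, had 335, 207 and 285 CPM in IP, 293, 355 and 458 CPM in IgG and 542, 412 and 568 CPM in Cytosol. IP was below Cytosol in every line (-0.91 ± 0.21, adjusted p = 0.0796, edgeR, and -0.87, adjusted p = 0.00329, DESeq2). AARS, called lower by DESeq2 in both comparisons (-0.59, adjusted p = 0.0325, and -0.63, adjusted p = 0.0405), had 296, 276 and 398 CPM in IP beside 316, 463 and 497 CPM in IgG.

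On the high side, GARS, the glycine enzyme, had 345, 280 and 360 CPM in IP, 138, 170 and 233 CPM in IgG and 327, 212 and 303 CPM in Cytosol. IP was above IgG in every line without overlap, but the change missed the threshold (0.70 ± 0.23, adjusted p = 0.197, edgeR), and IP and Cytosol overlapped. IgG against Cytosol for GARS was -0.50 ± 0.23 (adjusted p = 0.682, edgeR), the smallest p among members there. RARS, the arginine enzyme, had 82.8, 48.8 and 29.6 CPM in IP and 8.39, 15.1 and 29.4 CPM in IgG (1.48 ± 0.61, adjusted p = 0.31, edgeR), with the FS libraries nearly equal. IARS2 had 53.0, 64.2 and 99.5 CPM in IP and 29.6, 28.7 and 36 CPM in Cytosol (1.12 ± 0.40, adjusted p = 0.498, edgeR).

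In 8 members, all of them cytosolic, every IP library lay above every IgG library (background 9.96%), and in 2 below (background 4.21%). Against Cytosol, IP lay above in 2 (background 10.1%) and below in 8 (background 9.0%). IgG lay above Cytosol in 1 (background 5.07%) and below in 5 (background 12.8%). Of the listed neighbours, EEF1A1 was higher in IP than in IgG (0.92 ± 0.11, adjusted p = 0.000571, edgeR), and SLC7A5 (-1.04) and SLC3A2 (-1.70), the subunits of an amino acid transporter, were lower.

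PAR-CLIP in Flp-In-293 cells placed U2AF1 on most synthetase transcripts. In cytoplasm WT, 30 of 36 genes had a cluster, in cytoplasm S34F 32 and in chromatin WT 34. Among the 9501 genes that reached 500 counts in every HBEC gradient the shares were 55.2%, 50.4% and 65.1%. At least 3 clusters were found in 22, 17 and 31 members, beside 26%, 25.0% and 46.9% of those genes. The lists held 168, 225 and 801 clusters in members, 0.631%, 0.78% and 0.862% of all clusters, with 3669, 3605 and 63695 reads. The lists have no replicates, so numbers of clusters were not compared by a test.

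The cytosolic enzymes held most of them. Median clusters per gene were 5, 8 and 30.5 for the cytosolic and 2, 2 and 6 for the mitochondrial enzymes, and 1, 1 and 2 for genes of the background. Neither these numbers nor the shares above were matched for transcript level or gene length. In HBEC Cytosol the cytosolic enzymes also had the higher median RPKM. Whether level or length goes with the number of clusters was not tested. IARS, the isoleucine enzyme, had the most in chromatin, with 136 clusters beside 27 in cytoplasm WT and 28 in cytoplasm S34F. LARS, the leucine enzyme, had 75, 11 and 37, and TARS had 58, 5 and 12 in the same order. FARSA had 11 clusters in cytoplasm WT, 2 in cytoplasm S34F and 4 in chromatin.

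Other members with at least 3 clusters in each list included MARS (47 in chromatin, 14 in cytoplasm WT, 13 in cytoplasm S34F), FARSB (47, 9 and 9), YARS (43, 4 and 14), AARS (42, 11 and 10), SARS2 (13, 7 and 6) and RARS2 (31, 3 and 11). HARS had 12 in chromatin and 7 in cytoplasm WT but 0 in cytoplasm S34F. QARS had 11, 1 and 1. VARS and VARS2, at ranks 5 and 4 of the RPKM order in HBEC Cytosol, had none in any list. Both genes lie on chromosome 6 (chr6:31745296-31763712 and chr6:30881984-30894235). No list had a cluster within 250 kb of either, and 0 of 21 neighbours of VARS and 0 of 11 neighbours of VARS2 that reached 500 counts in every gradient had one. The missing clusters were therefore shared with the surrounding region and are no measurement of these genes.

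**Figure D5:**
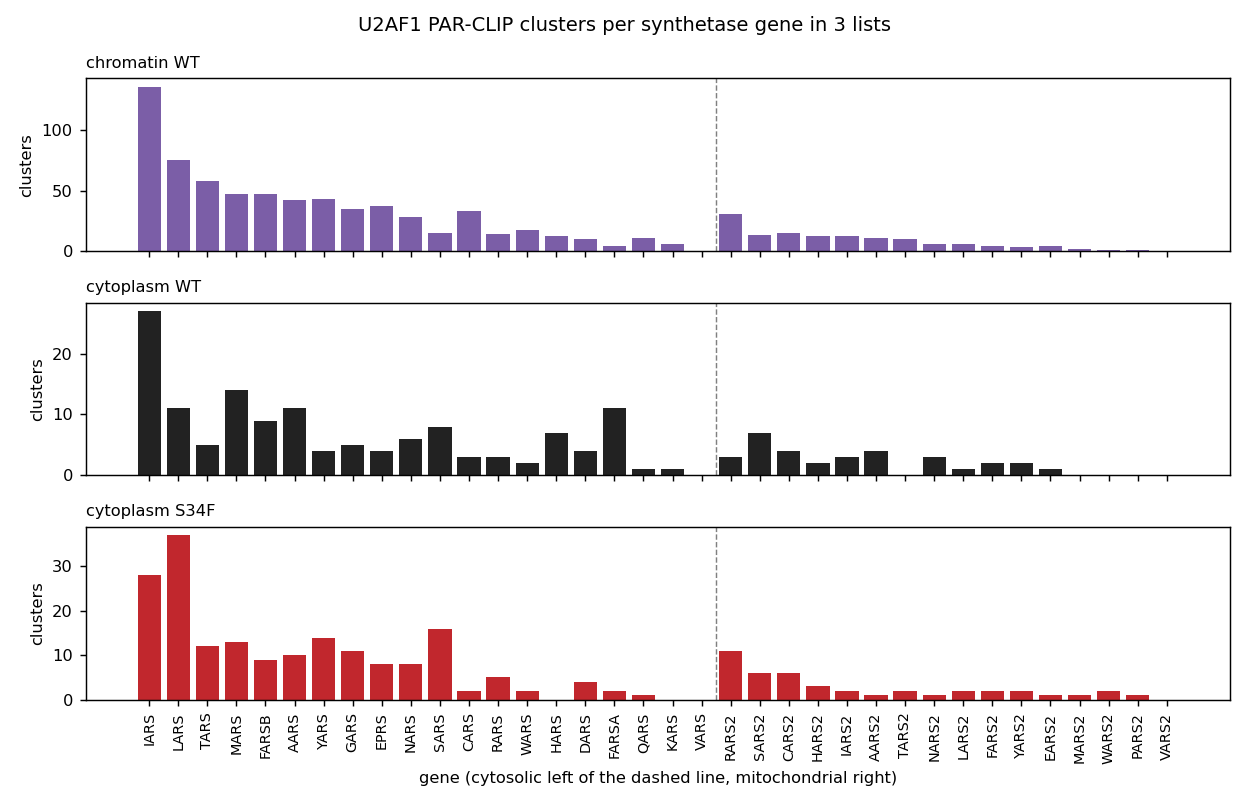
Number of U2AF1 PAR-CLIP clusters per synthetase gene in chromatin WT, cytoplasm WT and cytoplasm S34F, cytosolic enzymes left and mitochondrial enzymes right of the dashed line, with a scale of its own for each list. IARS leads in chromatin (136) and LARS in cytoplasm S34F (37), and VARS and VARS2, which lie in regions without clusters, have none.

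Clusters that run from an intron into an exon show the splice acceptor that U2AF1 is known to read. In the chromatin list, 139 of 153 such clusters in members (90.8%) held a CAG or TAG within their first 30 bases. In the whole list 91.7% of such clusters did, and of member clusters in coding sequence 58.0% did. The base triplet was CAG in 62.6% of the 139, beside 57.4% in the whole list. The 10 bases before the AG held a median of 9 pyrimidines, as in the whole list, beside 5 before the same triplets in clusters in coding sequence. The last of the 10 is the C or T of the triplet, so it is always a pyrimidine. In members the medians cover only clusters with 10 bases there, 69 from intron into exon and 76 in coding sequence. The sequences below are the clusters with the most reads of this kind in 5 cytosolic and 3 mitochondrial genes, shown to let the acceptor be seen, as RNA-sense DNA from 5′ to 3′ (first 30 bases), with the first CAG or TAG in capitals.
IARS: aatttatttCAGgatgttcaagatccttca
LARS: gactctctatttCAGatgtcaaaatccaca
TARS: aaaaatcattttgctttatcctCAGcaact
MARS: aactctttttttaCAGgtcagtcccttgtt
AARS: ttctgccattCAGgcacctgcggaactcga
RARS2: ggccactttgtttCAGagatcttgcagctg
CARS2: tttttgtttCAGggcatttgcacgccaaag
IARS2: aaatttattttggctttgttcccTAGatta

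These were chosen among clusters with at least 7 pyrimidines of 10 up to the AG, so their pyrimidine runs are part of the choice. The build of the lists is not given in the sources used here, and 97.6% to 99.6% of member clusters lay inside the gene spans of the RIP tables on the same strand. The IARS cluster lay at chr9:95043077-95043187 on the minus strand, at an intron and 5′ UTR boundary, with 1080 reads, the most of any member cluster of this kind. The MARS cluster lay at chr12:57909687-57909754 on the plus strand with 577 reads. TARS (chr5:33461747-33461849, plus) had 342 reads, AARS (chr16:70289634-70289752, minus) 303 and LARS (chr5:145515195-145515242, minus) 201. The mitochondrial clusters were smaller, with 124 reads in IARS2 (chr1:220313499-220313548, plus), 117 in RARS2 (chr6:88231208-88231258, minus) and 106 in CARS2 (chr13:111315829-111315877, minus). IARS2 showed a TAG and the other 7 a CAG.

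The cytoplasm lists had a different layout. In members, 50% of cytoplasm WT clusters and 44.0% of cytoplasm S34F clusters lay in coding sequence, beside 32.5% and 26.5% of the whole lists, and 28.8% in chromatin beside 32.6%. Clusters in the 3′ UTR made up 5.36%, 4.89% and 3.62%, beside 15.1%, 17.3% and 5.82%. Introns held 26.2%, 37.3% and 39.2%, beside 28.9%, 34.1% and 29.8%. The median T-to-C fraction of member clusters was 0.625 in cytoplasm WT, 0.741 in cytoplasm S34F and 0.941 in chromatin, beside 0.837, 0.833 and 1.0 in the whole lists. The families differed in this, with no test. Of cytosolic enzyme clusters 55.1% in cytoplasm WT and 45.6% in cytoplasm S34F were coding, with median T-to-C fractions of 0.567 and 0.714. Of the fewer mitochondrial enzyme clusters (32 and 43) 28.1% and 37.2% were coding, with medians of 0.855 and 0.889, above those of the lists.

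Of member clusters, 46.4% in cytoplasm WT (78 of 168) and 48.9% in cytoplasm S34F (110 of 225) overlapped a chromatin cluster by at least 1 base. Of all clusters, 18.2% and 21.3% did. Members also held more chromatin clusters per gene, with a median of 12 beside 2 for genes of the background. The overlaps were not adjusted for this. In the other direction 9.86% and 13.6% of the 801 chromatin clusters overlapped a cluster of cytoplasm WT and of cytoplasm S34F, beside 5.34% and 6.7% of all chromatin clusters. Cytoplasm WT and S34F shared 17.3% of the WT and 12.9% of the S34F member clusters (all clusters 10.2% and 9.41%).

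The sequences below show a LARS intron cluster that was listed in cytoplasm S34F and in chromatin and not in cytoplasm WT, and 3 cytoplasm clusters that hold the most reads or belong to QARS, again with the first CAG or TAG in capitals.
LARS in cytoplasm S34F: gtgctttttCAGattgaagaaat
LARS in chromatin WT: tgctttttCAGattgaagaaatacggtt
LARS coding, cytoplasm S34F: aatggcgtggtgcctgttgttaaggaatt
SARS2 intron, cytoplasm WT: ccttccccaccccgcgccctctta
QARS coding, cytoplasm WT: ttgtcttcattgagaggactgacttc

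The LARS intron cluster lay at chr5:145556150-145556172 with 41 reads in cytoplasm S34F and at chr5:145556144-145556171 with 780 reads in chromatin WT. The LARS coding cluster (chr5:145536976-145537004) had 116 reads, the most of any member cluster in cytoplasm S34F. The SARS2 cluster (chr19:39411027-39411050, minus), of the mitochondrial serine enzyme, had 236 reads, the most in cytoplasm WT, and was rich in pyrimidines without a CAG or TAG. The QARS cluster (chr3:49136324-49136349, minus) had 12 reads and was its only one in that list.

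Promoters were searched because ATF4 is known to act on synthetase genes through the C/EBP-ATF response element. The motif TGATGNAA was sought on both strands in RefSeq promoters (GRCh38.p14, 250 bases before to 50 after the start). It was found in 7 of 16 cytosolic genes with an entry (43.8%, of 20), in 1 of 14 mitochondrial genes (7.14%, of 16) and in 3 of 15 amino acid response genes (20%, of 18). Of all 27305 symbols in the table, 4.46% held it. DARS, LARS, VARS, YARS, AARS2 and VARS2 had no entry. The windows of 30 bases below are shown because they carry that difference between both families, with the motif in capitals, read along the gene.
AARS: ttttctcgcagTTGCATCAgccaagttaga
CARS: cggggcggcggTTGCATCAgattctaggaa
GARS: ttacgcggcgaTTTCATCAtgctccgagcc
IARS: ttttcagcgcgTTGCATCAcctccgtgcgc
MARS: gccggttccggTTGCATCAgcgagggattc
NARS: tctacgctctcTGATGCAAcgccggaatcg
TARS: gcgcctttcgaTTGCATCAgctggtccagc
YARS2: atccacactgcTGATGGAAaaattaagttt

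In GRCh38.p14 these windows lay at chr16:70289675-70289704 (AARS, minus), chr11:3057407-3057436 (CARS, minus), chr7:30594834-30594863 (GARS, plus), chr9:92293692-92293721 (IARS, minus), chr12:57488053-57488082 (MARS, plus), chr18:57621804-57621833 (NARS, minus), chr5:33440956-33440985 (TARS, plus) and chr12:32756076-32756105 (YARS2, minus). The motif read against the gene in 6 of the 7 cytosolic promoters and along it in NARS. The 7 cytosolic genes with the motif did not move together between lines. In FS against WT polysome RNA their log2 differences were 0.58 (AARS), -0.09 (CARS), 0.36 (GARS), 0.89 (IARS), -0.30 (MARS), 1.11 (NARS) and 0.93 (TARS). A match is a description of the letters, not of a bound site.

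Some members share sequence with a neighbour, and the sources used here do not say whether counting used the strand. HARS and HARS2 overlap by 303 bases on opposite strands, SARS2 and MRPS12 by 190, YARS and S100PBP by 592, DARS and DARS-AS1 by 510 and MARS and DDIT3 by 69. Values of these genes may hold reads of the partner.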

How the data were processed

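Polysome RNA (24 libraries), RIP RNA (9 libraries) and 3 PAR-CLIP cluster lists (6 samples) were used. TopHat is named in the submitters' processing notes, without a version. The genome build, counter and strand use are not given in the sources used here. The polysome and RIP tables hold expected counts deposited by the authors, of which 57.5% and 26.3% of values were not whole. The RIP tables also hold RPKM computed by the authors. The deposited cluster lists give, per the file headers, the count of reads of a cluster and its fraction of T-to-C changes, from 2 pooled replicates each.

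Of 21603 polysome entries, 28 date-like names and 45 repeats were dropped, and of 26453 RIP entries 119 repeats. Expected counts were rounded and tested with edgeR 4.0.16 (limma 3.58.1, R 4.3.3): filterByExpr, TMM, quasi-likelihood, line as a block, Benjamini-Hochberg over all genes, threshold 0.05. The polysome fit used all 24 and the RIP fit all 9 libraries. Log2 changes of lists and genes without a p come from the same fits. The block follows the cell line: deviations of same-line libraries had a median correlation of 0.346 over 84 polysome pairs (-0.251 to 0.765, 78 above 0) and 0.064 over 9 RIP pairs (0.024 to 0.133). Differences between lines used genes that reached 500 counts in every gradient or 50 in every Cytosol library (8432 genes).

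Alternatives were no block, DESeq2 1.42.0, RLE scaling, no low count filter, only the libraries compared, each line left out, a fold of 2, TMM-scaled CPM, gradients without an end fraction, and clusters of at least 10 reads or a T-to-C fraction of at least 0.3. Called members with the largest changes (up to 6 per compartment) were named with values, between lines up to 4 of like direction in both kinds of RNA, and PAR-CLIP members with 3 or more clusters or most reads. The testing script was checked on simulated data. The members and lists were chosen with earlier results of these data known. Python 3.11.15, pandas 2.3.3, numpy 2.4.6 and matplotlib 3.10.9 were used.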

Additional observations from a re-analysis of the deposited data

How the results depend on the processing

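No synthetase result changed direction past the threshold under any alternative. Without the replicate block, 8-10 ribosomes against monosomes gave 11 cytosolic and 5 mitochondrial mRNAs higher and 0 mitochondrial lower (17, 10 and 2 with it), and 6 and 7 against 2 and 3 ribosomes gave 0 cytosolic higher, 1 cytosolic lower and 2 mitochondrial lower (3, 5 and 4). For 8-10 ribosomes, only the libraries compared gave 6 mitochondrial higher, and no low count filter 0 mitochondrial lower. For 6 and 7 ribosomes, cytosolic mRNAs lower numbered 9 with DESeq2, 8 with RLE and 9 with only the libraries compared, and cytosolic mRNAs higher numbered 0 with no low count filter. The share of all genes under these alternatives is not given here.

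With 1 line left out, counts at 8-10 ribosomes ranged from 7 to 14 (cytosolic higher), 5 to 7 (mitochondrial higher) and 0 to 1 (mitochondrial lower). At 6 and 7 ribosomes they ranged from 0 to 0 (cytosolic higher), 2 to 7 (cytosolic lower), 1 to 2 (mitochondrial higher) and 2 to 5 (mitochondrial lower). The cause was not tested, beyond the fewer samples, and no share of all genes in these fits stands beside these counts.

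In RIP IP against IgG, cytosolic mRNAs lower went from 0 to 3 with DESeq2, 1 with RLE and 1 with no low count filter. In IP against Cytosol they went from 0 to 2 with DESeq2, 1 with no low count filter and 1 with only the libraries compared. No share of all genes under these settings stands beside these counts.

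Between lines, a fold of 2 left 0 cytosolic higher and 0 lower in S34F polysome RNA and 4 and 0 in FS, with 2 mitochondrial higher. In Cytosol it left 0 and 0 cytosolic and 1 and 0 mitochondrial in S34F, and 1 cytosolic lower and 0 and 0 mitochondrial in FS. TMM scaling of polysome CPM gave 3 cytosolic lower in S34F, and 2 mitochondrial higher and 1 lower in FS. Without monosomes 1 mitochondrial mRNA was higher in S34F. Without 8-10 ribosomes 0 cytosolic were higher, 3 lower and 1 mitochondrial higher in S34F. In the index, 0 cytosolic and 0 mitochondrial members then stood 1 ribosome above WT, a step harder to reach without that fraction. For the fold counts, the share of all genes at these settings is not given here.

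Without monosomes the median ribosome index, averaged over lines, was 5.63 for cytosolic and 5.37 for mitochondrial enzymes, since the fraction of 1 ribosome was left out. Of clusters with at least 10 reads, 139 lay in members in cytoplasm S34F, and 14 members had at least 3 in cytoplasm WT. Depth limits the members near 3 counts per library, among them WARS2 and RARS2 in RIP. Low values in single RIP libraries were also found for MARS2 (0.0412 RPKM in IgG of FS), NARS2 (0.0666 in IgG of S34F) and DARS (0.0627 in IgG of FS).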
